A study of Mus musculus with 3 samples.

Results

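The 10 genes described here carry peptides to the cell surface on major histocompatibility complex (MHC) class I molecules. They are the heavy chains H2-K1 (ENSMUSG00000061232), H2-D1 (ENSMUSG00000073411) and H2-T23 (ENSMUSG00000067212), the light chain B2m (ENSMUSG00000060802), the peptide transporter subunits Tap1 (ENSMUSG00000037321) and Tap2 (ENSMUSG00000024339), the loading factor Tapbp (ENSMUSG00000024308), the immunoproteasome subunits Psmb8 (ENSMUSG00000024338) and Psmb9 (ENSMUSG00000096727), and the regulator Nlrc5 (ENSMUSG00000074151). They were chosen by symbol among 21750 features, and all 10 were found, each with a single identifier. Their RNA was counted as unique molecular identifiers (UMIs) in 1 single-cell library of hippocampal cells. The mice, 5 pooled in 1 suspension, carried Aldh1l1CreERT2, a tamoxifen-inducible recombinase driven by an astrocyte promoter, and Rosa26-LSL-tdTomato, a Cre-dependent red reporter. All had received AAV-TIGRi-Hopx in the hippocampus, a Cre-dependent viral vector that lowers Hopx and carries EGFP, and cells were collected 3 weeks after tamoxifen by sorting for tdTomato and EGFP. Mouse age and sex are not given in the labels used here. The series has 3 samples, and its anti-Flag and IgG chromatin samples of primary astrocytes were not analysed here. Every comparison below is between cell types or groups of cells within this library, in which all animals had received the vector.

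Class I molecules are assembled in the endoplasmic reticulum from a heavy chain, B2m and a peptide. Proteasomes cut the peptides, the Tap1 and Tap2 transporter moves them into the endoplasmic reticulum, and tapasin, the product of Tapbp, holds an empty heavy chain beside the transporter. CD8 T cells read the result, and interferons raise nearly all genes of the pathway, partly through the coactivator NLRC5. In healthy brain, class I is known to be low in neurons and higher in microglia and vessel walls.

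Upstream sequence is shown for 5 members, because it sets H2-K1 and H2-D1, which are close copies, beside genes of other roles. Of the 10 members, 8 lie on chromosome 17, B2m on chromosome 2 and Nlrc5 on chromosome 8, and 8 had an entry in the RefSeq promoter table (build GRCm38.p6). The 250 bases before the start of each gene read 5′ to 3′ on the gene's own strand. H2-K1, for which the first of 2 listed starts was used, lies at chr17:34000348-34000597 (minus strand), H2-D1 at chr17:35262844-35263093 (plus), B2m at chr2:122147437-122147686 (plus), Tap1 at chr17:34187306-34187555 (plus) and H2-T23 at chr17:36032702-36032951 (minus). Capitals mark the motifs described after the sequences.
H2-K1: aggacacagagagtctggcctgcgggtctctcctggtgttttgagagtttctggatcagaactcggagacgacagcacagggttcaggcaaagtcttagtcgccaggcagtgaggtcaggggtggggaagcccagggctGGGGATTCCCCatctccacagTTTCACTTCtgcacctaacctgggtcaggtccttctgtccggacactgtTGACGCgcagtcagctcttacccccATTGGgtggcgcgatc
H2-D1: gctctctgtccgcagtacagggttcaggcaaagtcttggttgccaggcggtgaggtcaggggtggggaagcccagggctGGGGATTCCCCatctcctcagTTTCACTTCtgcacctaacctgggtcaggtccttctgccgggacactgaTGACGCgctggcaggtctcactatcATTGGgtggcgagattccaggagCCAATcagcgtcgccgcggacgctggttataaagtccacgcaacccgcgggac
B2m: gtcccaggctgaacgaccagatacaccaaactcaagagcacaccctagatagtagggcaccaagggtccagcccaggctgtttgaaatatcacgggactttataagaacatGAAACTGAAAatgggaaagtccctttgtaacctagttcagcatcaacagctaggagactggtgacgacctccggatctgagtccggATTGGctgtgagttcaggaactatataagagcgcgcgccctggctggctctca
Tap1: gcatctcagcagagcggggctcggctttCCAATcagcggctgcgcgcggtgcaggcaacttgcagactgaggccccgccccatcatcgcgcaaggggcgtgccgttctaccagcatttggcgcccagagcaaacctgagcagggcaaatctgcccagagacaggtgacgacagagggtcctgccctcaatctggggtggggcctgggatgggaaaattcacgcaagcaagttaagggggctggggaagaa
H2-T23: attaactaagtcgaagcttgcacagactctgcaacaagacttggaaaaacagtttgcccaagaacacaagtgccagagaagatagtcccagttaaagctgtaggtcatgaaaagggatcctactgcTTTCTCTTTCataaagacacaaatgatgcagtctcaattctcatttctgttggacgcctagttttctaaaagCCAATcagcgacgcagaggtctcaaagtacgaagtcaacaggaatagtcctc
The motifs were chosen after these sequences were seen and were searched on both strands in all 32851 promoters of the table. GAANNGAAA, a core of the interferon response element, was found before H2-K1 and H2-D1 and in 6.31% of all promoters. Its other spacing, GAAA at both ends with any 2 bases between, was found before B2m and H2-T23 and in 2.98% of all promoters. An NF-kB motif, GGGA and CCC with any base, T and any base between, was found before H2-K1 and H2-D1 and in 0.944%, and both genes held 2 overlapping copies. TGACGC, the core of the X2 box bound in the class I enhanceosome, was found before H2-K1 and H2-D1 and in 6.12%. Each of these motifs was found in 2 of the 8 members. TTCNNNGAA, a gamma-activated site, was also searched and was found in 1 of the 8, Psmb8, whose sequence is not shown, and in 7.02%. CCAAT was found in 7 of the 8 members and in 33.8%. The matches of Tap1 and Psmb9 are the same bases read on opposite strands, so a single site counts for both members. H2-K1 and H2-D1 were identical at 87.4% of 190 aligned bases. Tap1 and Psmb9 are transcribed in opposite directions from starts with 225 bases between them on chromosome 17. A match of letters is a description and does not show that a factor binds there.

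After removal of 187 barcodes with fewer than 500 genes or more than 15% mitochondrial UMIs, 6485 barcodes remained, with a median of 5564 UMIs and a range of 610.0 to 42440. The 10 genes gave 367577 UMIs, 0.880% of the total. Cells were assigned to types by 155 marker genes, none of them a member, which placed 5744 cells and left 741 ungated. Of the 261 doublets that were called, 215 were among the ungated cells. The 10 types described are microglia (2592 cells), endothelial (1515), choroid plexus (593), ependymal (504), border macrophage (200), astrocyte (140), oligodendrocyte (88), B cell (39), neuron (32) and T or NK cells (24). The sort was for labelled astrocyte-lineage cells, whereas the astrocyte gate held 2.16% of the cells kept. Hopx, the targeted gene, had 536 counts per 1000000 UMIs (CPM) in astrocytes, 333 in choroid plexus and 226 in T or NK cells. It had 169 CPM in oligodendrocytes, 127 in ependymal cells and 13.4 in neurons. No library without the vector is at hand, so these values do not measure the knockdown.

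Each gate was checked against its leading genes. Astrocytes were led by Myoc, Gpc5 and the markers Ntsr2 and Slc1a2, and Mog was among the leading genes of oligodendrocytes. The neuron gate was led by Kcnh7, Reln, Myt1l and Sox11. The B cell gate was led by Slpi, Ly6d and Cd79a, with Jchain at 37146 CPM, a gene of antibody-secreting cells. Of its 39 cells, 10 had no more than the 3 markers required. Endothelial cells were led by haemoglobin genes, with Hbb-bs at 1405 CPM against 6.68 CPM in all other cells. RNA shared between droplets was followed with C1qa, a complement gene of microglia and border macrophages. It had 14040 CPM in microglia and 53.6 to 282 CPM in the 6 endothelial, epithelial, glial and neuronal types, between 0.382% and 2.01% of its microglial level. The lowest level of a member in those types relative to microglia was 1.52% (H2-D1 in choroid plexus), against 0.546% for C1qa in the same cells.

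The 10 genes together were highest in microglia and lowest in choroid plexus. Their summed level was 15032 CPM in microglia (exact 95% Poisson interval 14975 to 15090), 11513 in B cells, 9226 in T or NK cells, 6660 in oligodendrocytes, 6411 in border macrophages and 5326 in endothelial cells. It was 3072 CPM in ependymal cells, 1662 in astrocytes (1557 to 1772), 805 in neurons (667 to 962) and 499.6 in choroid plexus (483 to 517). With 1 library there is no replicate and no test. All intervals cover counting error only, and cells of 1 suspension are not replicates. UMIs come from the 3′ end of transcripts and are not scaled to length, so a gene is compared between cell types and not with another gene.

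H2-K1 and H2-D1 encode the classical heavy chains of the K and D loci, which present peptides to CD8 T cells. H2-K1 had 3752 CPM in microglia, 3147 in T or NK cells, 2924 in B cells, 1731 in border macrophages, 1428 in endothelial cells, 1145 in oligodendrocytes, 1094 in ependymal cells, 472 in astrocytes, 208 in neurons and 110 in choroid plexus. Neighbours in this order whose intervals overlapped were T or NK cells with B cells, and oligodendrocytes with ependymal cells. H2-D1 had 5425 CPM in microglia, 2880 in oligodendrocytes, 2148 in B cells, 2104 in border macrophages, 2005 in T or NK cells, 1658 in endothelial cells, 841 in ependymal cells, 347 in astrocytes, 262 in neurons and 82.6 in choroid plexus. Oligodendrocytes held the second place for H2-D1 by this pooled level, with an interval of 2752 to 3013 that lay apart from both neighbours. A minority of their cells carried most of it: 24 of the 88 held 1329 of the 1891 UMIs. Astrocytes and neurons overlapped for H2-D1, as did B cells, border macrophages and T or NK cells along the order. The 2 genes are near copies of each other and of the H2-Q genes, and how reads shared between copies were counted is not stated in the notes used here, so their split is uncertain.

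B2m encodes the light chain that every class I heavy chain needs to reach the surface. It had 4215 CPM in B cells, 4173 in microglia, 1822 in T or NK cells, 1526 in oligodendrocytes, 1426 in border macrophages, 1317 in endothelial cells, 395 in ependymal cells, 365 in astrocytes, 141 in choroid plexus and 141 in neurons. Ependymal cells and astrocytes overlapped for B2m, although H2-K1 and H2-D1 were each over 2 times higher in ependymal cells. With cells thinned at random to 2000 UMIs, B2m was detected in 98.9% of microglia, 84.4% of endothelial cells, 63.4% of oligodendrocytes, 28.3% of astrocytes, 23.2% of choroid plexus cells and 21.4% of neurons. Without thinning the shares were 99.4%, 90.3%, 75.0%, 42.1%, 66.4% and 37.5% in the same order of types. C1qa, which these last 5 types should lack, was detected in 16.3%, 13.4%, 11.1%, 8.06% and 3.57% of their thinned cells, taken in the same order.

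**Figure D1:**
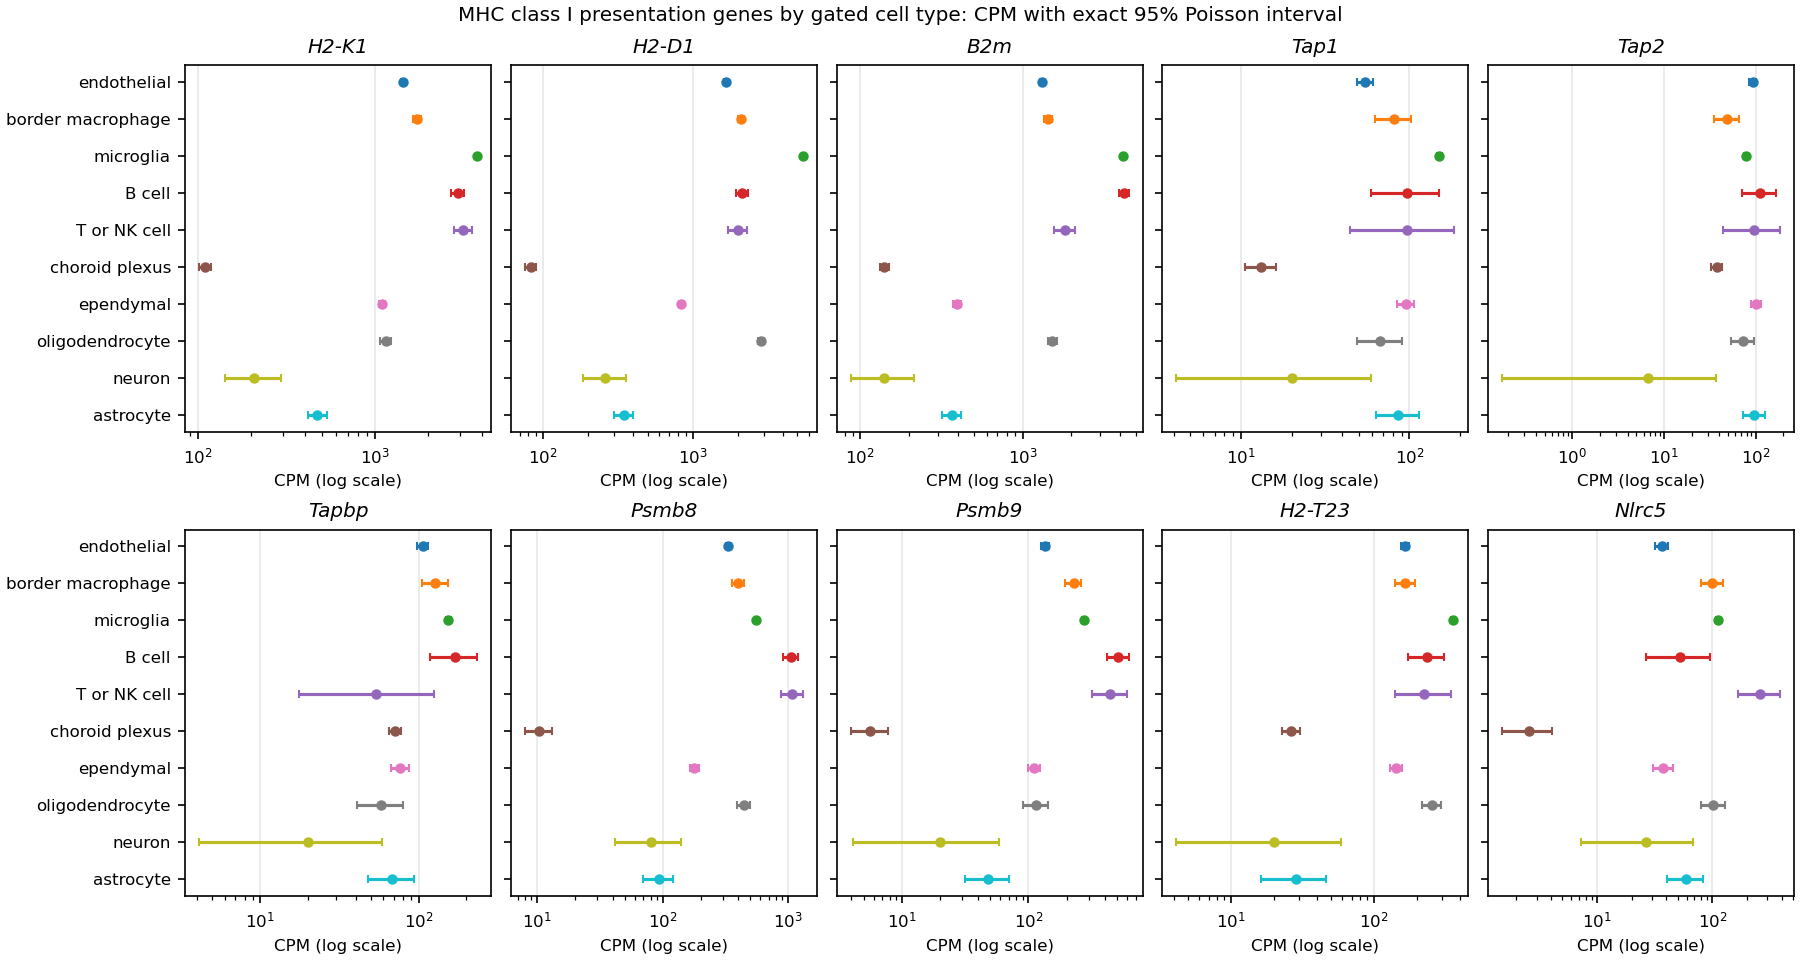
Level of each of the 10 class I genes in each of the 10 gated cell types, in CPM on a log axis, with exact 95% Poisson intervals that cover counting error only. H2-D1 runs from 5425 CPM in microglia to 82.6 CPM in choroid plexus, while Tapbp runs from 169 CPM in B cells to 20.1 CPM in neurons.

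Psmb8 and Psmb9 encode interferon-inducible catalytic subunits that replace Psmb5 and Psmb6 in the immunoproteasome and change which peptides are cut. Psmb8 had 1078 CPM in T or NK cells, 1050 in B cells, 556 in microglia, 440 in oligodendrocytes, 400.0 in border macrophages, 333 in endothelial cells, 179 in ependymal cells, 92.6 in astrocytes, 80.5 in neurons and 10.3 in choroid plexus. Psmb9 had 511 CPM in B cells, 442 in T or NK cells, 273 in microglia, 227 in border macrophages, 135 in endothelial cells, 114 in oligodendrocytes, 111 in ependymal cells, 48.1 in astrocytes, 20.1 in neurons and 5.60 in choroid plexus. These genes spanned the types most widely of the 10 together with Nlrc5, at 105-fold for Psmb8 and 91.2-fold for Psmb9. The neuronal value of Psmb9 rests on 3 UMIs, and its interval (4.15 to 58.8 CPM) overlapped those of astrocytes and choroid plexus.

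Set against the standard subunits they replace, the immunoproteasome genes split the types further. Psmb8, Psmb9 and Psmb10 together had 6.24 UMIs for each UMI of Psmb5, Psmb6 and Psmb7 in T or NK cells (4.07 to 9.94), 3.63 in B cells, 3.21 in border macrophages and 3.14 in microglia (3.05 to 3.24). The ratio was 1.69 in endothelial cells, 1.08 in oligodendrocytes, 0.702 in ependymal cells and 0.673 in astrocytes (0.524 to 0.861). It was 0.225 in neurons (0.131 to 0.368) and 0.0522 in choroid plexus (0.0460 to 0.0589). The intervals of ependymal cells and astrocytes overlapped. The standard subunits summed to 797 CPM in choroid plexus and 597 CPM in neurons, the highest of the 10 types, and to 269 CPM in T or NK cells. The ratio compares UMIs between types and is not a ratio of molecules.

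Tap1 and Tap2 encode the paired subunits of the peptide transporter, and Tapbp the tapasin that joins it to the heavy chain. Tap1 had 150 CPM in microglia, 97.0 in T or NK cells, 96.3 in B cells, 94.9 in ependymal cells, 85.5 in astrocytes, 80.7 in border macrophages, 67.0 in oligodendrocytes, 54.7 in endothelial cells, 20.1 in neurons and 13.2 in choroid plexus. Tap2 had 111 CPM in B cells, 101 in ependymal cells, 97.0 in T or NK cells, 96.2 in astrocytes, 92.6 in endothelial cells, 78.5 in microglia, 73.1 in oligodendrocytes, 49.1 in border macrophages, 37.5 in choroid plexus and 6.71 in neurons. Tapbp had 169 CPM in B cells, 154 in microglia, 127 in border macrophages, 106 in endothelial cells, 76.3 in ependymal cells, 70.9 in choroid plexus, 67.7 in astrocytes, 57.9 in oligodendrocytes, 53.9 in T or NK cells and 20.1 in neurons. Nearly all neighbours in these 3 orders overlapped, and astrocytes sat within the range of the immune cells for Tap2. Choroid plexus, lowest or next to lowest for the 9 other members, ranked above astrocytes for Tapbp, with overlapping intervals. Neurons had 3 UMIs of Tap1, 1 of Tap2 and 3 of Tapbp in 32 cells.

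H2-T23 encodes the non-classical heavy chain Qa-1, which is read by CD94 and NKG2 receptors of NK and CD8 T cells. It had 357 CPM in microglia, 254 in oligodendrocytes, 236 in B cells, 226 in T or NK cells, 166 in border macrophages, 166 in endothelial cells, 143 in ependymal cells, 28.5 in astrocytes, 26.5 in choroid plexus and 20.1 in neurons. Astrocytes, choroid plexus and neurons overlapped along the order at its low end, and the step above them to ependymal cells was clear of counting error. Nlrc5, which encodes the transactivator of class I genes, had 259 CPM in T or NK cells, 112 in microglia, 102 in oligodendrocytes, 99.4 in border macrophages, 58.8 in astrocytes, 53.0 in B cells, 37.5 in ependymal cells, 36.3 in endothelial cells, 26.8 in neurons and 2.57 in choroid plexus. For Nlrc5 astrocytes ranked above ependymal and endothelial cells, although they were below both for H2-K1 and H2-D1. The astrocyte value of Nlrc5 rests on 33 UMIs, and its interval (40.5 to 82.5 CPM) overlapped those of ependymal (30.8 to 45.2) and endothelial cells (31.7 to 41.4).

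The heavy chains were not balanced alike in all types. H2-D1 had 2.51 UMIs for each UMI of H2-K1 in oligodendrocytes (2.31 to 2.74), 1.45 in microglia (1.43 to 1.46), 1.22 in border macrophages and 1.16 in endothelial cells. The ratio was 0.768 in ependymal cells, 0.754 in choroid plexus, 0.736 in astrocytes, 0.735 in B cells and 0.637 in T or NK cells (0.527 to 0.768). In neurons it was 1.26, with an interval of 0.765 to 2.09 that holds 1. The interval of oligodendrocytes lay above those of all 9 other types. Most of the H2-D1 UMIs behind it came from 24 of the 88 oligodendrocytes, so it does not describe every cell of the type. The split of reads between H2-K1 and H2-D1 is uncertain, as stated above, which bears on all these ratios. B2m had 0.831 UMIs for each UMI of both heavy chains in B cells, 0.734 in choroid plexus, 0.455 in microglia and 0.204 in ependymal cells.

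**Figure D2:**
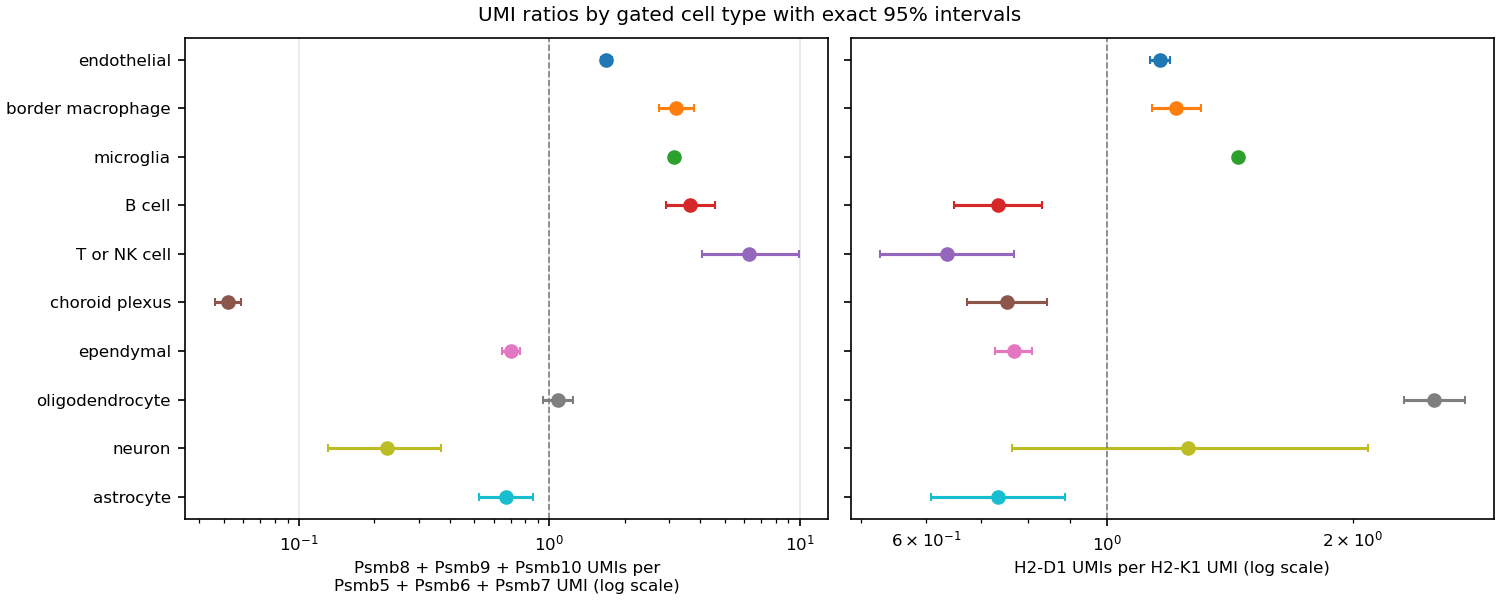
Ratio of immunoproteasome to standard proteasome UMIs and ratio of H2-D1 to H2-K1 UMIs in each gated type, on log axes, with exact 95% intervals for counting error. The first ratio runs from 6.24 in T or NK cells to 0.0522 in choroid plexus, and the second is highest in oligodendrocytes at 2.51.

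The level also differed between cells of 1 type. The summed level per cell ran from 5753 CPM at the 10th percentile to 21259 at the 90th in microglia, with a median of 14536. In oligodendrocytes it ran from 131 to 16453 CPM with a median of 3767, and the top 10% of cells held 52.3% of the members' UMIs. By the median cell they lay below border macrophages (5443 CPM) and endothelial cells (4132 CPM), both of which they exceeded in the pooled level. In astrocytes it ran from 0 to 4030 CPM with a median of 762, and the top 10% held 60.1%, against 23.5% in microglia. No member was detected in 22 of 140 astrocytes, 5 of 88 oligodendrocytes, 5 of 32 neurons, 43 of 593 choroid plexus cells and 0 of 2592 microglia. The median depth was 6399.5 UMIs in microglia and 2883 in astrocytes, and its part in the range was not tested.

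**Figure D3:**
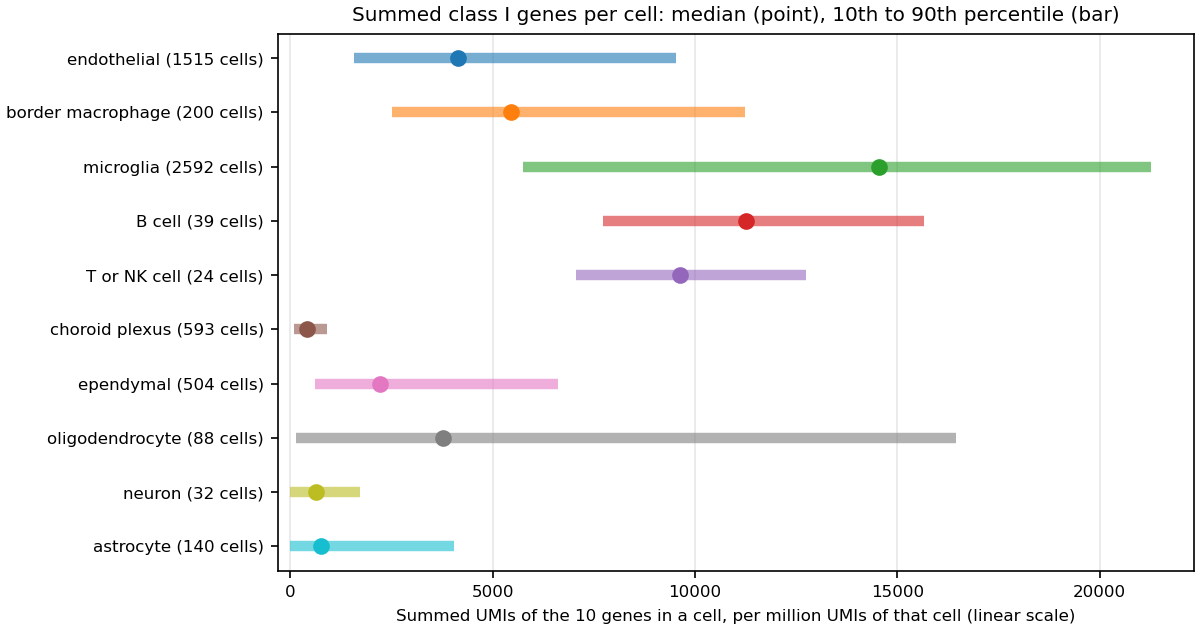
Summed level of the 10 class I genes per cell in each gated type, as the median (point) and the 10th to 90th percentile (bar), in CPM. Oligodendrocytes run from 131 to 16453 CPM, whereas the bar of microglia runs from 5753 to 21259 CPM.

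A gene was called higher or lower between groups when it had at least 10 UMIs in both together, a ratio of at least 2 or at most 0.5, and an interval of the ratio on one side of 1. Microglia against astrocytes set immune cells against the targeted cell type, and microglia also had the highest summed level. Of the 10 members, 7 were called higher, against 15.5% of 12971 genes tested, and 0 lower, against 32.1%. H2-D1 was 15.6 times higher (13.6 to 18.1), H2-T23 12.5 times, B2m 11.4 times, H2-K1 7.95 times, Psmb8 6.01 times, Psmb9 5.68 times and Tapbp 2.28 times. Nlrc5 had 1.91 times, Tap1 1.76 times and Tap2 0.816 times the astrocyte level. The members' median log2 ratio was 2.53 and that of all genes -0.49. Of the 11 other heavy chain genes 7 were called higher, led by H2-Q7, a Qa-2 gene, at 991 CPM in microglia and 51.6 CPM in astrocytes. Of the 13 regulators 6 were higher and 2 lower. Irf8, a myeloid transcription factor, had 412 CPM in microglia and 7.12 CPM in astrocytes, and Nfyc, a subunit of the factor that binds CCAAT, 34.9 and 121 CPM. Of the 4 interferon receptor genes 3 were higher, with Ifngr2 at 217 CPM in microglia and 10.7 CPM in astrocytes. None of the 3 standard proteasome subunits was called.

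Endothelial cells against astrocytes gave 6 members called higher, against 16.7% of 12367 genes, and 0 lower, against 25.2%. H2-T23 was 5.82 times higher, H2-D1 4.77 times, B2m 3.61 times, Psmb8 3.59 times, H2-K1 3.03 times and Psmb9 2.82 times. Tap1 (0.640 times), Nlrc5 (0.618 times) and Tap2 (0.963 times) were not called, and the first 2 had intervals below 1. The members' median log2 ratio was 1.53 against -0.20 over all genes. Of the 11 other heavy chain genes 8 were higher, and Fcgrt, the neonatal Fc receptor of vessel walls, had 323 CPM in endothelial cells and 80.1 CPM in astrocytes. Ifnar2, a subunit of the type I interferon receptor, was 7.27 times higher and Ifnar1 2.81 times. Irf7, an interferon-induced transcription factor, was 7.36 times higher, and 7 of the 12 interferon-induced genes were called higher. C1qa had 282 CPM in endothelial cells and 65.9 CPM in astrocytes. With all cells that held a C1qa, C1qb or C1qc UMI removed, 6 members were again called higher, and 1 was called lower.

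Oligodendrocytes against astrocytes also gave 6 members called higher, against 15.3% of 10139 genes, and 0 lower, against 22.6%. H2-T23 was 8.93 times higher (5.34 to 16.0), H2-D1 8.29 times (7.15 to 9.66), Psmb8 4.75 times, B2m 4.18 times, H2-K1 2.43 times and Psmb9 2.38 times. These ratios pool unlike cells. The 24 of 88 oligodendrocytes with 3 or more of the interferon-induced genes listed below held 3171 of the 4373 member UMIs. In astrocytes, 18 of 140 cells held 488 of 933. Oligodendrocytes with 0 of these genes were near or below the pooled astrocyte level for H2-T23, Psmb8, B2m and H2-K1, and above it for H2-D1. Tap1, Tap2 and Tapbp had 0.784, 0.760 and 0.855 times the astrocyte level, and all 3 intervals held 1. The members' median log2 ratio was 1.25 against -0.13 over all genes. Among the other heavy chains, H2-M3, which presents formylated peptides, H2-Q4 and H2-Q7 were 3.31, 3.10 and 2.92 times higher. Ifi27l2a, an interferon-induced gene, had 963 CPM in oligodendrocytes and 89.0 CPM in astrocytes, while Ifi44 had 22.8 and 78.4 CPM. Removal of cells with a C1q UMI left 6 members called higher.

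Ependymal cells against astrocytes gave 4 members called higher, against 19.2% of 12318 genes, and 0 lower, against 15.2%. H2-T23 was 5.01 times higher, H2-D1 2.42 times, H2-K1 2.32 times and Psmb9 2.30 times. B2m (1.08 times), Tap1 (1.11 times), Tap2 (1.05 times) and Tapbp (1.13 times) had intervals that held 1. The median log2 ratio was 0.55 for the members and 0.05 over all genes. Irf1, an interferon-induced activator of class I genes, had 138 CPM in ependymal cells and 24.9 CPM in astrocytes. Of the 12 interferon-induced genes 8 were called higher, with Isg15 at 817 CPM in ependymal cells and 185 CPM in astrocytes. In a stricter cell filter of at least 1000 genes and at most 5% mitochondrial UMIs, 2 members were called higher. Ependymal cells had 1.88% mitochondrial UMIs and astrocytes 4.43%.

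Neurons against astrocytes gave 0 members called higher, against 17.9% of 9377 genes, and 5 lower, against 14.2%. Tap2 had 0.0697 times the astrocyte level, Tap1 0.235 times, Tapbp 0.297 times, B2m 0.386 times (0.234 to 0.605) and H2-K1 0.440 times (0.293 to 0.640). H2-D1 (0.753 times) and Psmb8 (0.869 times) had intervals that held 1. The members' median log2 ratio was -1.11 against 0.19 over all genes. Psmb7 and Psmb6, standard proteasome subunits, were 2.61 and 2.14 times higher in neurons. Isg15 had 6.71 CPM in neurons and 185 CPM in astrocytes, and 8 of the 12 interferon-induced genes were called lower. The result rests on 120 member UMIs in neurons. Thinning to 2000 UMIs leaves out shallower cells and kept 28 of 32 neurons and 99 of 140 astrocytes. In these thinned cells 0 of 8 measured members were called lower and 1 higher, whereas the same cells without thinning gave 4 lower and 0 higher. With C1q-positive cells removed 2 of 9 measured members were lower.

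Among cells of non-neural origin, endothelial cells against microglia gave 0 members called higher, against 26.1% of 13337 genes, and 7 lower, against 17.9%. H2-D1 had 0.306 times the microglial level, B2m 0.316 times, Nlrc5 0.323 times, Tap1 0.363 times, H2-K1 0.381 times, H2-T23 0.465 times and Psmb9 0.496 times. Psmb8 (0.598 times) and Tapbp (0.689 times) were lower by less than the ratio required, and Tap2 was 1.18 times the microglial level (1.07 to 1.30). Of the 4 interferon receptor genes 1 was called higher and 2 lower. Ifnar1, of the type I receptor, had 145 CPM in endothelial cells and 57.8 CPM in microglia. In the type II receptor, Ifngr1 had 79.1 and 421 CPM and Ifngr2 20.0 and 217 CPM. Of the 12 interferon-induced genes 1 was called higher, Ifit1, at 228 CPM in endothelial cells and 60.0 CPM in microglia.

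Border macrophages against microglia, both resident myeloid cells, gave 0 members called higher, against 11.7% of 12361 genes, and 4 lower, against 7.62%. B2m had 0.342 times the microglial level, H2-D1 0.388 times, H2-K1 0.461 times and H2-T23 0.465 times. The other 6 members were not called, with Nlrc5 at 0.884 times, Psmb9 at 0.831 times, Tapbp at 0.828 times, Psmb8 at 0.718 times, Tap2 at 0.625 times and Tap1 at 0.536 times. Of the 11 other heavy chain genes 5 were lower, with H2-Q7 at 174 CPM in border macrophages and 991 CPM in microglia. Fcgrt was higher, at 471 CPM in border macrophages and 58.1 CPM in microglia.

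Choroid plexus against ependymal cells compared epithelia that both face the cerebrospinal fluid. It gave 0 members called higher, against 10.2% of 12901 genes, and 9 lower, against 52.8%. The background share is large here, with a median log2 ratio over all genes of -1.18, and the members' median was -3.08. Ttr, which encodes a carrier of thyroid hormone, alone had 209640 CPM in choroid plexus and 276 CPM in ependymal cells. Psmb9 had 0.0506 times the ependymal level, Psmb8 0.0575 times, Nlrc5 0.0686 times, H2-D1 0.0982 times, H2-K1 0.100 times (0.0922 to 0.109), Tap1 0.139 times, H2-T23 0.186 times, B2m 0.357 times and Tap2 0.370 times. Tapbp was at 0.929 times (0.791 to 1.10). With ratios centred on the median of all genes, 7 members were lower and 1, Tapbp, was higher. Of the 13 regulators 10 were lower, with Irf1 at 3.93 CPM in choroid plexus and 138 CPM in ependymal cells. Of the 12 interferon-induced genes 11 were lower and Ifi27l2a was higher, at 371 CPM in choroid plexus and 75.3 CPM in ependymal cells. Removal of C1q-positive cells left 9 members lower.

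Within the vessel wall, arterial against capillary endothelial cells gave 1 member called higher, against 3.50% of 11065 genes, and 0 lower, against 2.23%. Tap2 had 209 CPM in 29 arterial cells and 87.4 CPM in 1137 capillary cells. It was not called with cells thinned to 2000 UMIs. The venous gate held 7 cells, too few to describe. With looser groups added after the data were seen, 662 endothelial cells with venous markers and 327 with arterial markers were each set against 468 with capillary markers. Neither had a member called, against 1.91% and 3.00% of genes called higher and 1.64% and 2.28% called lower. The H2-K1 ratios were 1.45 (1.36 to 1.53) and 1.29 (1.21 to 1.38).

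Cells were next grouped by how many of 12 interferon-induced genes outside the members (Ifit1, Ifit2, Ifit3, Isg15, Rsad2, Oasl2, Ifi44, Usp18, Irf7, Rtp4, Xaf1 and Ifi27l2a) were detected after thinning to 2000 UMIs. A band of this count is a range of a score and not a cell type. In endothelial cells the summed level of the members was 2626 CPM in the band of 0 genes (177 cells), 3559 in that of 1 to 2 (416 cells) and 6995 in that of 3 or more (723 cells). In ependymal cells the 3 bands had 1401, 2115 and 4398 CPM, and in microglia 9269, 14114 and 16796 CPM. In astrocytes they had 645, 1263 and 4130 CPM in 44, 37 and 18 cells. In oligodendrocytes, a grouping added after the data were seen, they had 1851, 4112 and 15199 CPM in 35, 23 and 24 cells. The top band of oligodendrocytes thus reached the level of microglia as a whole, and these are the 24 cells that held most of the H2-D1 UMIs of the type. Neurons had 627, 1248 and 871 CPM in 17, 9 and 2 cells, too few to compare. Many cells lie near the limits of the bands: in endothelial cells 190 had exactly 2 genes and 180 exactly 3. Over 10 random thinnings the oligodendrocyte bands ran from 1009 to 1868, 3873 to 6012 and 14134 to 16167 CPM, and the astrocyte bands from 458 to 751, 1054 to 1793 and 3794 to 4291 CPM.

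**Figure D4:**
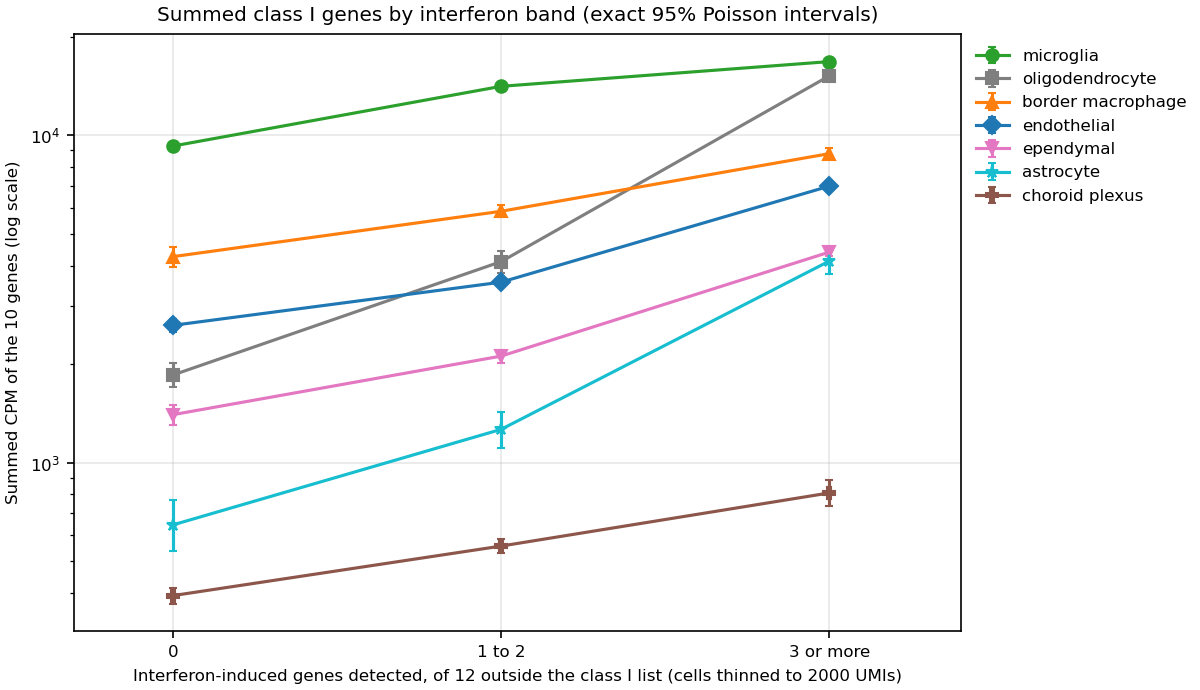
Summed level of the 10 class I genes in cells with 0, 1 to 2, and 3 or more of 12 interferon-induced genes detected, by cell type, in CPM on a log axis with exact 95% Poisson intervals. Neurons, with 2 cells in the top band, are not drawn. The level is higher in each successive band in the 7 types drawn, from 1851 to 15199 CPM in oligodendrocytes and from 9269 to 16796 CPM in microglia.

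Every member was called higher in the top band of astrocytes and oligodendrocytes, and few in that of microglia. In astrocytes, cells with 3 or more genes against cells with 0 gave 10 of 10 members higher, against 7.25% of 6155 genes, and 0 lower, against 4.18%. Psmb8 had 296 CPM in the top band and 21.0 CPM in the band of 0 (14.1 times, 5.05 to 54.7), H2-D1 922 and 115 CPM, B2m 948 and 147 CPM, H2-K1 1041 and 210 CPM, and Tap1 203 and 26.2 CPM. Nlrc5 (161 and 5.24 CPM) and H2-T23 (127 and 5.24 CPM) each rest on 1 UMI in the band of 0. The median depth was 6584.5 UMIs in the top band and 4046.5 in the band of 0, and mitochondrial UMIs were 2.92% and 5.01%, whose part in the result was not tested. C1qa had 25.4 and 52.4 CPM, and the 11 microglial markers found summed to 245 and 346 CPM. Of the standard proteasome subunits, Psmb6 was also called higher, at 2.12 times (1.05 to 4.34). Psmb5 (2.04 times, 0.984 to 4.32) and Psmb7 (0.621 times, 0.173 to 1.86) were not called. With at least 30 UMIs required, or with cells thinned, only 5 members could be compared, and all 5 were called higher.

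In oligodendrocytes the same comparison gave 10 of 10 members higher, against 5.20% of 6865 genes, and 0 lower, against 3.44%. H2-D1 had 6370 CPM in the top band and 804 CPM in the band of 0, B2m 3446 and 402 CPM, and H2-K1 2377 and 480 CPM. Psmb8 had 1241 and 42.3 CPM (29.3 times, 16.5 to 57.5), H2-T23 738 and 24.7 CPM (29.9 times, 14.2 to 75.6) and Tap1 192 and 7.05 CPM (27.2 times, 7.05 to 232). The Psmb8 value of the top band was above that of microglia as a whole. Psmb10 was 10.6 times higher and Psme1, an activator subunit of the proteasome, 6.41 times. C1qa had 76.7 CPM in the top band and 31.7 CPM in the band of 0, and 496 CPM in the band between. Microglial markers summed to 216 and 176 CPM in the top band and the band of 0. Of the interferon receptor genes, Ifnar2 was called higher, at 4.08 times (1.24 to 17.3) on 12 and 4 UMIs. None of the 3 standard proteasome subunits was called.

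In ependymal cells 9 of 10 members were higher in the top band, against 3.48% of 11298 genes, and in endothelial cells 9 of 10, against 3.35% of 10974. In both 0 were lower, against 1.27% and 0.957% of the genes. In both types Tapbp was the member not called, at 1.83 times in ependymal and 1.28 times in endothelial cells. Psmb8 was 7.92 times higher in ependymal cells (312 and 39.4 CPM) and 3.66 times in endothelial cells (472 and 129 CPM). None of the 4 interferon receptor genes was called in these types. C1qa had 147 CPM in the top band and 58.3 CPM in the band of 0 of ependymal cells, and 420 and 103 CPM in endothelial cells. With C1q-positive cells removed, 9 members were called higher in each type.

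In border macrophages 6 of 10 members were higher in the top band, against 4.01% of 6186 genes, and 0 lower, against 2.78%. H2-K1 was at 2534 CPM in the top band and 961 CPM in the band of 0. Of the interferon receptor genes, Ifngr2 was called higher, at 2.35 times (1.14 to 5.34). In choroid plexus 4 of 9 measured members were higher, against 2.43% of 10040 genes, and 0 lower, against 2.09%. These were Psmb8 (32.5 and 2.55 CPM), Psmb9 (21.6 and 2.87 CPM), H2-D1 (173 and 46.2 CPM) and H2-K1 (171 and 83.2 CPM). Ifngr2 was called higher in choroid plexus as well, at 2.59 times (1.15 to 5.50). C1qa had 270 CPM in the choroid plexus top band and 29.9 CPM in the band of 0, and mitochondrial UMIs were 2.79% and 4.18%. Without called doublets 1 member was higher there, and without C1q-positive cells 2. Both comparisons were added after the data were seen.

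In microglia 3 of 10 members were higher in the top band, against 3.16% of 11523 genes, and 0 lower, against 5.65%. They were H2-T23 at 2.19 times, Psmb9 at 2.14 times and Tap1 at 2.10 times. The other members lay between 1.45 and 1.95 times, with H2-K1 at 4274 CPM in the top band and 2220 CPM in the band of 0. All 10 intervals lay above 1. Median depth was 7047 UMIs in the top band and 5020 in the band of 0, and C1qa had 15108 and 10528 CPM. Microglial markers summed to 7547 CPM in the top band and 10751 CPM in the band of 0. The part of these differences in the result was not tested. A required ratio of 1.5 in place of 2 gave 9 members, and 6 were called with cells thinned. The members' median log2 ratio was 0.94 in microglia, 1.11 in border macrophages, 1.44 in endothelial cells, 1.98 in ependymal cells, 2.76 in astrocytes and 3.07 in oligodendrocytes. Over all genes it was between -0.16 and 0.06 in these 6 types.

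EGFP is carried by the vector, and ependymal cells held most of the cells with an EGFP UMI among the gated types. In 40 EGFP-positive against 464 EGFP-negative ependymal cells, 3 of 10 members were called higher, against 3.00% of 11852 genes, and 0 lower, against 1.91%. Psmb9 had 224 CPM in positive and 97.5 CPM in negative cells (2.30 times, 1.73 to 3.01), Tap1 188 and 84.1 CPM (2.23 times, 1.64 to 3.00) and Psmb8 333 and 161 CPM (2.07 times, 1.65 to 2.58). The other ratios were between 1.24 for Tapbp and 1.75 for Tap2, and with a required ratio of 1.5 the count was 7. The summed level was 4802 CPM in positive and 2870 CPM in negative cells. Among other heavy chain genes, H2-Q6 was 3.87 times, H2-Q7 3.21 times and H2-Q4 2.03 times higher.

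The interferon-induced genes moved with EGFP as well. Their sum was 6769 CPM in EGFP-positive and 3103 CPM in EGFP-negative ependymal cells, and 8 of 12 were called higher, with Rsad2 at 903 and 201 CPM. The top band held 27 of 39 positive cells at the thinning depth, or 69.2% (Clopper-Pearson 52.4 to 83.0), and 191 of 410 negative cells, or 46.6% (41.7 to 51.5). Within the top band the members summed to 5568 CPM in positive and 4183 CPM in negative cells, a ratio of 1.33 (1.25 to 1.42). Within the band of 1 to 2 genes the ratio was 1.61 (1.40 to 1.85) with 10 positive cells, and in the band of 0 it was 1.18 (0.769 to 1.75) with 2. Median depth was 6329 UMIs in positive and 5253 in negative cells, so positive cells were also deeper. Its part in the result was not tested. The other types held 0 to 7 EGFP-positive cells each, too few to compare.

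**Figure D5:**
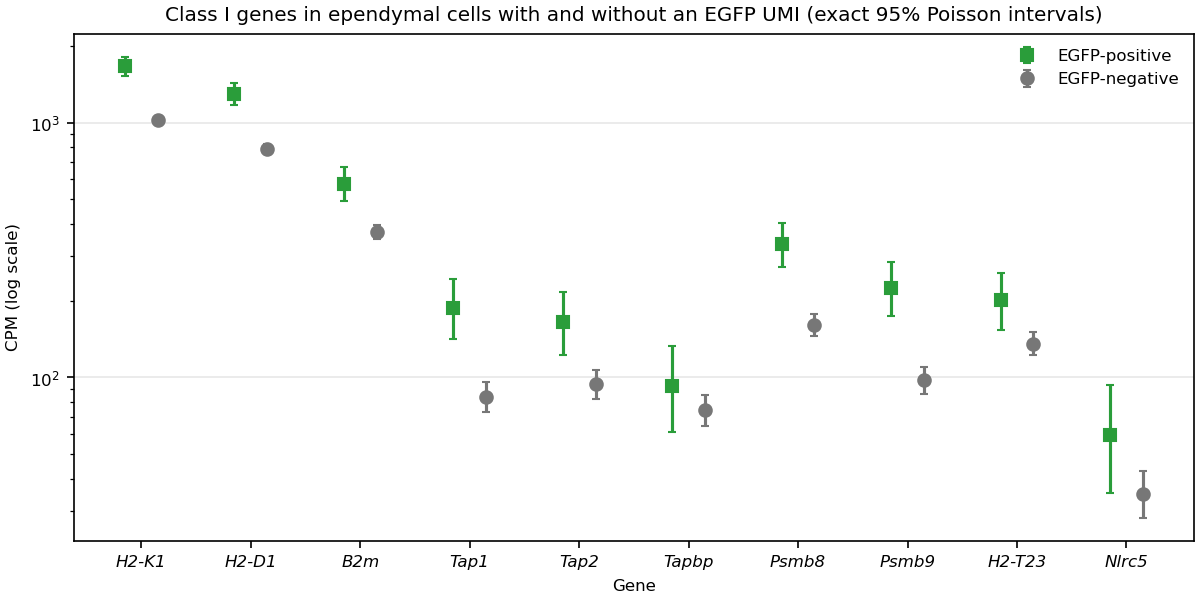
Level of each class I gene in 40 EGFP-positive and 464 EGFP-negative ependymal cells, in CPM on a log axis, with exact 95% Poisson intervals for counting error. All 10 levels are higher in positive cells, by 1.24 times (Tapbp) to 2.30 times (Psmb9).

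Members were compared with each other and with other genes by their profile over the 10 types, as a description over groups of cells from 1 library. Pearson's r of log2(CPM + 1) between a member and the mean of the other members was 0.989 for H2-K1, 0.968 for Psmb9, 0.944 for H2-D1, 0.940 for B2m, 0.935 for Psmb8, 0.916 for H2-T23, 0.889 for Tap1 and 0.790 for Nlrc5. It was 0.630 for Tap2 and 0.586 for Tapbp, the members with the flattest profiles beside Tap1. Among 9036 other genes with at least 50 CPM in a type, those most like the members' mean included Zbp1 (0.966), H2-Q5 (0.947), Daxx (0.944), Dtx3l (0.943), Wwp2 (0.939), Ell2 (0.937) and Tnip2 (0.927). Zbp1, a sensor of nucleic acids, had 332 CPM in B cells, 116 CPM in microglia, 67.5 CPM in endothelial cells and 1.21 CPM in choroid plexus. The types share 1 library.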

How the data were processed

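The deposited counts are UMIs per gene and barcode. The submitters' processing notes name Cell Ranger 8.0.1 and the build GRCm39, and no gene annotation. The chromatin samples were not analysed here. Barcodes with at least 500 genes and at most 15% mitochondrial UMIs were kept. A cell took the type with the most markers detected if at least 3 were and no other type had more than 50% as many. Of 155 marker symbols, 2 were not matched. Types with at least 15 cells were described. UMIs were summed per type and scaled to 1000000 (CPM). Levels have exact 95% Poisson intervals, shares Clopper-Pearson intervals and ratios exact conditional binomial intervals. With 1 library and pooled mice no test across samples was possible. Log2 ratios use sums with 0.5 UMI added. Doublets were called with Scrublet (scanpy 1.11.5, expected rate 0.05), which marked 4.02% of barcodes. They were kept, since 215 of 261 were ungated, and removed in an alternative. Other tools were Python 3.11.15, numpy 2.4.6, scipy 1.17.1, pandas 2.3.3 and matplotlib 3.10.9.

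Named genes are the 10 members, at most 3 genes per direction and list with the largest ratio among those called with at least 20 CPM in a group, and the 8 genes with the highest r. Not every gene this rule selects is given. Leading genes of gates are description. Members and lists were chosen with earlier results of these data known. The ratio code was tested on simulated data. Alternatives varied the cell filter, gate, doublets, thinning, weighing of cells, lowest UMIs and ratio. Later ones varied the random thinning, centring, C1q-positive cells and cells under 2000 UMIs.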

Additional observations from a re-analysis of the deposited data

How the results depend on the processing

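Of 456 alternative values of the counts and rankings, including settings chosen after seeing the data, 27 moved and 0 were tallied as reversed. The other 429 kept their main value or a count within 1.5 times of it. Neurons against astrocytes went from 5 members lower and 0 higher to 0 lower and 1 higher with cells thinned. The tally does not count this change of direction as a reversal. Of 79 alternative values of the summed level in a type, 56 lay within its counting interval and 23 outside, among them 1268 CPM (thinned) and 2124 CPM (stricter cell filter) in astrocytes and 1018 CPM (thinned) in neurons. These counts of members moved. With a ratio of 1.5, 7 members were higher in EGFP-positive ependymal cells, 9 in the microglial top band and 2 in arterial endothelial cells, 2 were lower in endothelial cells against astrocytes and 1 in ependymal cells against astrocytes. With the mean of per-cell CPM, 7 were higher in the microglial top band and 2 in arterial cells, and 1 was lower in endothelial and 1 in ependymal cells against astrocytes. With cells thinned to 2000 UMIs, 6 were higher in the microglial top band, 5 in the astrocyte top band and 0 in arterial cells, and in neurons against astrocytes 1 was higher and 0 lower. Thinning also leaves out shallower cells; leaving them out with no thinning, a setting added later, moved no count by over 1.5 times. With at least 30 UMIs, 5 were higher in the astrocyte and 2 in the choroid plexus top band. With at least 1000 genes and at most 5% mitochondrial UMIs, 2 were higher in ependymal cells against astrocytes. Without called doublets, 1 was higher in the choroid plexus top band.

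Settings chosen after seeing the data moved others. Without C1q-positive cells, 2 were higher in the choroid plexus top band, 2 lower in neurons against astrocytes and 1 lower in endothelial cells against astrocytes. With ratios centred on the median of all genes, 7 were higher in the microglial top band and 1 in choroid plexus against ependymal cells. Endothelial cells with venous markers had 1 member higher by per-cell means and 1 at a ratio of 1.5. Those with arterial markers had 1 higher by per-cell means and 1 lower at a ratio of 1.5. Except where the lowest UMI count or the number of cells shows it, the cause was not tested.

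The venous gate gave no value in any setting. The stricter gate left too few B cells, and removal of C1q-positive cells too few for the astrocyte and oligodendrocyte bands and the EGFP comparison. Leaving out a replicate was not possible with 1 library. No paired analysis was possible because the series has 1 single-cell library. Depth limits the neuron, T or NK and astrocyte values most, which rest on 120, 856 and 933 member UMIs.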

Other observations

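Receptor genes of the cells that read class I were counted in the 10 types. Cd8a, a co-receptor for class I, had 19 UMIs in the T or NK gate and 0 in the other 9 types. Cd8b1 had 23 in the T or NK gate and 3 elsewhere. Klrc1, the NKG2A chain that pairs with CD94 to read H2-T23, had 12 UMIs in that gate and 0 elsewhere among the described types. Klrd1, which encodes CD94, had 22 UMIs in the T or NK gate, 10 in microglia and 3 in endothelial cells. Klrk1, an activating receptor gene, had 4 UMIs there (43.1 CPM), 13 in border macrophages (15.2 CPM) and 11 in microglia (0.629 CPM). Chosen after their values were seen, the interferon genes themselves were also examined. Ifng had 175 UMIs in the 24 T or NK cells, 1 in endothelial cells, 0 in the 8 other described types and 130 in ungated cells. Ifnb1 had 119 UMIs in 27 of 2592 microglia and 4 in 2 ungated cells. Its 52 UMIs in the endothelial gate all came from 1 of 1515 cells. Gbp2, an interferon-induced gene, had 243 CPM in ependymal cells, 119 CPM in endothelial cells, 84.2 CPM in microglia and 0.756 CPM in choroid plexus (5 UMIs).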
